A study of Canis lupus familiaris with 4 samples.

Results

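Distal chromosome 1 of the dog, the stretch beyond 100 Mb in the CanFam3.1 build, held 1204 of the 59081 accessible sites (peaks) of the series. The peaks were chosen by position alone, with a midpoint above 100 Mb, but the stretch was selected on folds already seen in these same libraries. Its folds are therefore given as a description, calls from the all-peak fit included, and the stretch was not tested against the rest of the genome. Accessibility was measured by ATAC-seq in MDCKII, an epithelial line from dog kidney. The reseeded group (n = 2 libraries, A and B) was taken from monolayers grown for 7 d, then detached and plated again for 2 h. The mature group (n = 2 libraries, A and B) was taken from monolayers kept intact for 7 d. Both groups were labelled wild type and grown in the same medium, and no library carried another treatment. MDCKII is a single line, and the labels do not say whether libraries A and B came from separate cultures, so the spread within a group may be technical. The names of all reseeded libraries open with a code unlike that of the mature libraries, so a batch that went with the code and reseeding itself cannot be told apart.

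In ATAC-seq the transposase Tn5 cuts DNA that nucleosomes leave exposed, so reads pile up at promoters, enhancers and other regulatory sites. Dog autosomes have their centromere at one end, and the far end of chromosome 1 is its telomeric end. In comparative maps this end corresponds to part of the long arm of human chromosome 19, which is rich in genes, and gene-rich DNA usually carries many accessible sites. Mature MDCK monolayers are polarised and joined by tight junctions, which are broken when cells are detached. Peaks were not placed on genes and no DNA sequence is shown, because no genome or annotation of CanFam3.1 was used here.

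Counts in all peaks totalled 16906566 and 24015663 in reseeded libraries A and B, against 8759513 and 6253706 in mature libraries A and B. The peaks beyond 100 Mb took 390005 and 549436 of these counts in reseeded cells, against 252474 and 177533 in mature cells. A median peak of the stretch had 254 and 346 counts in reseeded cells, against 150 and 108 in mature cells. A count of 3, taken as the floor, equals 0.177 and 0.125 CPM (counts after each library is brought to the same total) in reseeded libraries A and B, and 0.342 and 0.48 CPM in mature libraries A and B. Only 1 value, in reseeded library A, lay at or under that floor among the peaks of the stretch. Floors and intervals cover counting error only.

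Peaks were crowded beyond 100 Mb. The stretch reached to the last peak of the chromosome, which ended at 122229203, and held 54.2 peaks per Mb, against 20.4 per Mb in the rest of chromosome 1. Chromosome 9, with 58.3 per Mb, and chromosome 20, with 44.5 per Mb, were of similar density. The median distance between adjacent peaks was 6.09 kb, against 12.6 kb in the rest of chromosome 1. Distances of up to 1 kb made up 16.5% of those beyond 100 Mb and 9.83% of those in the rest of the chromosome. A median peak had 79 others within 500 kb on either side, against 31 in the rest of chromosome 1.

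After reseeding, distal chromosome 1 lost weight within its chromosome. It held 41.0% and 40.8% of all chromosome 1 counts in reseeded libraries A and B, against 49.5% and 49.2% in mature libraries A and B. The exact (Clopper-Pearson) 95% counting intervals were 40.86 to 41.05% and 40.70 to 40.87% for the reseeded libraries, and 49.32 to 49.60% and 49.05 to 49.37% for the mature libraries. The difference of the group means was -8.5 percentage points, and libraries of a group lay within 0.3 points of each other. The difference was -8.4 points without the 5 strongest peaks of the stretch. Of all counts in the genome's peaks, the stretch took 2.31% and 2.29% in reseeded cells, against 2.88% and 2.84% in mature cells. Shares do not depend on a single scaling factor per library. Loess offsets, which vary with mean level, were not applied to them. A share can also fall because counts rise elsewhere. In the rest of chromosome 1 the summed CPM was 32811 and 32719 in reseeded libraries, against 29923 and 29679 in mature libraries. Beyond 100 Mb it was 22758 and 22534 in reseeded libraries, against 29283 and 28757 in mature libraries. These sums rest on trimmed-mean (TMM) scaling and show a lower sum beyond the bound beside a higher sum before it.

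Most single peaks beyond 100 Mb were lower after reseeding, by a moderate amount. The median log2 fold of reseeded over mature was -0.41, with the middle 50% of peaks between -0.77 and 0.13. The median was 0.32 in the rest of chromosome 1, -0.28 on chromosome 9, -0.31 on chromosome 20 and -0.01 over all tested peaks. With loess offsets trended on mean level, the medians were -0.37 beyond 100 Mb, 0.05 in the rest of chromosome 1 and -0.12 over all peaks, so the gap narrowed. A fold below 0 was found at 71.3% of the peaks beyond 100 Mb and at 41.9% of those in the rest of chromosome 1. Each library pairing gave a like value: the median log2 ratio beyond 100 Mb was -0.409 and -0.365 for reseeded A over mature A and B, and -0.424 and -0.397 for reseeded B over mature A and B. In the rest of chromosome 1 these 4 ratios lay between 0.287 and 0.314. The median CPM of a peak beyond 100 Mb was 14.8 and 14.2 in reseeded libraries, against 17.4 and 17.5 in mature libraries.

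All 1204 peaks passed the filter on low counts. With a threshold of 0.05 on the adjusted p of edgeR's quasi-likelihood test, 1008 of them (83.7%) were called different, beside 84.1% of all 59076 tested peaks. Lower accessibility was called at 743 peaks (61.7%, beside 41.8% of all peaks) and higher accessibility at 265 (22.0% of the stretch, beside 42.3%). Folds of at least 2, counted only at called peaks, were found upward at 136 peaks (11.3%, beside 26.9% of all peaks). Folds of at least 2 downward were found at 199 peaks (16.5%, beside 15.0%). Most lower calls were of small size: 544 peaks (45.2%) were called lower by less than 2-fold, beside 26.8% of all tested peaks. In the rest of chromosome 1, gains of at least 2-fold were found at 697 peaks (34.2%) and losses of that size at 257 (12.6%).

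**Figure D1:**
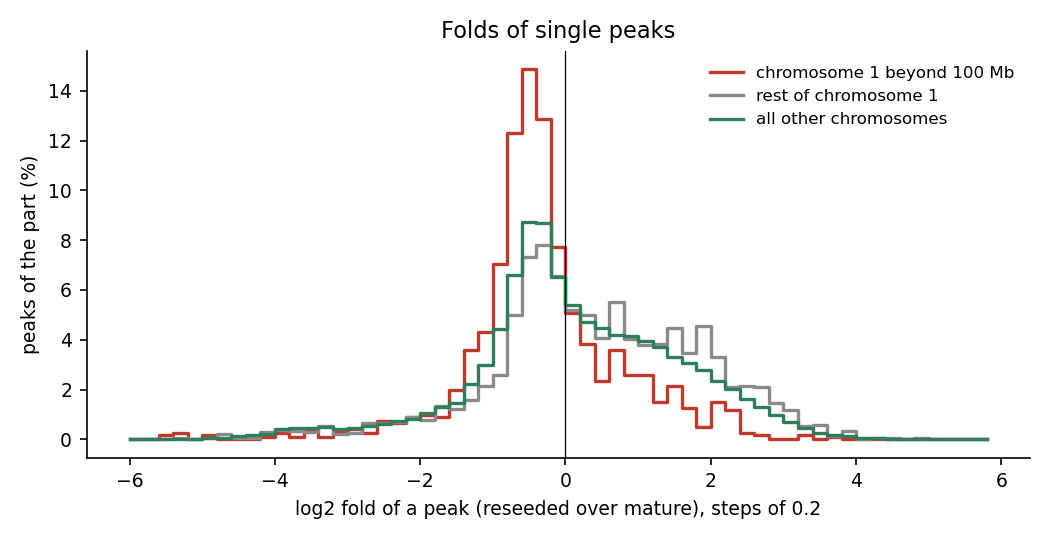
Share of peaks (%, vertical axis) by log2 fold of reseeded over mature (horizontal axis, steps of 0.2) for the 1204 peaks of chromosome 1 beyond 100 Mb, the 2036 peaks of the rest of chromosome 1 and all other chromosomes. Beyond 100 Mb the curve peaks just below 0, around its median of -0.41, and its right side is thinner than that of the rest of chromosome 1, whose median is 0.32.

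Under TMM scaling the small losses made up most of the lower sum. The peaks called lower by less than 2-fold held 56.4% of the CPM of the stretch in reseeded cells and 63.9% in mature cells, and together they differed by -5755 CPM. The 199 peaks at least 2-fold lower differed by -3098 CPM, and the 136 peaks at least 2-fold higher by 1751 CPM. The whole stretch differed by -6374 CPM. With loess offsets 492 peaks were called lower by less than 2-fold and 241 by at least 2-fold, and the folds of strong peaks were smaller, so these sums hold for TMM scaling only. The mildly lower peaks were the strong sites, with a median of 18.2 CPM in reseeded and 27.6 CPM in mature cells. Peaks at least 2-fold lower had medians of 6.14 CPM in reseeded and 17.9 CPM in mature cells. Peaks at least 2-fold higher had medians of 15.8 CPM in reseeded and 4.92 CPM in mature cells, and at these mature library B exceeded mature library A with a median log2 ratio of 0.24. The part of that difference between the mature libraries in the gains was not tested.

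Under TMM scaling stronger sites were more often called lower. The stretch was divided into 4 classes of 301 peaks by the mean CPM of both groups. In the strongest class (26.8 to 139 CPM), 82.7% were called lower and 8.31% higher, with a median log2 fold of -0.49. In the weakest class (4.0 to 10.1 CPM), 44.9% were called lower and 34.9% higher, with a median of -0.19. Folds of at least 2 upward numbered 8 in the strongest class and 65 in the weakest, and folds of at least 2 downward numbered 26 and 77. Under loess offsets the shares called lower were alike, at 59.5% in the strongest class and 60.5% in the weakest, and the medians were -0.21 and -0.71, so the order of the medians turned round.

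Taken in steps of 1 Mb, every tested window beyond 100 Mb was lower after reseeding under TMM scaling. Peaks fell in 22 of the 23 steps, and 21 of them held the 5 or more peaks required for a test. All 21 were called lower by edgeR's quasi-likelihood test on summed counts, beside 42.6% of the 1803 windows of the genome, and the largest adjusted p was 0.00026. In each of the 21, both reseeded libraries lay below both mature libraries. The share of the genome's windows with groups apart in this way was not counted. Of the 1803 windows, 768 were called lower, 798 higher and only 237 neither, so separate groups need not be particular to the stretch. Log2 folds ranged from -1.09 to -0.17 with a median of -0.34, and standard errors (SE) from 0.016 to 0.074. With loess offsets trended on mean level, 17 of the 21 were called lower and none higher, and the windows from 102000001 and from 109000001 turned to log2 folds of 0.01 and 0.03. Scaled by library size alone, 20 were called lower. In the rest of chromosome 1, 21 of 85 windows were called lower, 50 higher and 14 neither, and their log2 folds ranged from -2.23 to 1.15. On chromosome 9, 40 of 60 windows were called lower and 10 higher, and of the 50 windows of chromosome 20, 31 were called lower and 14 higher.

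**Figure D2:**
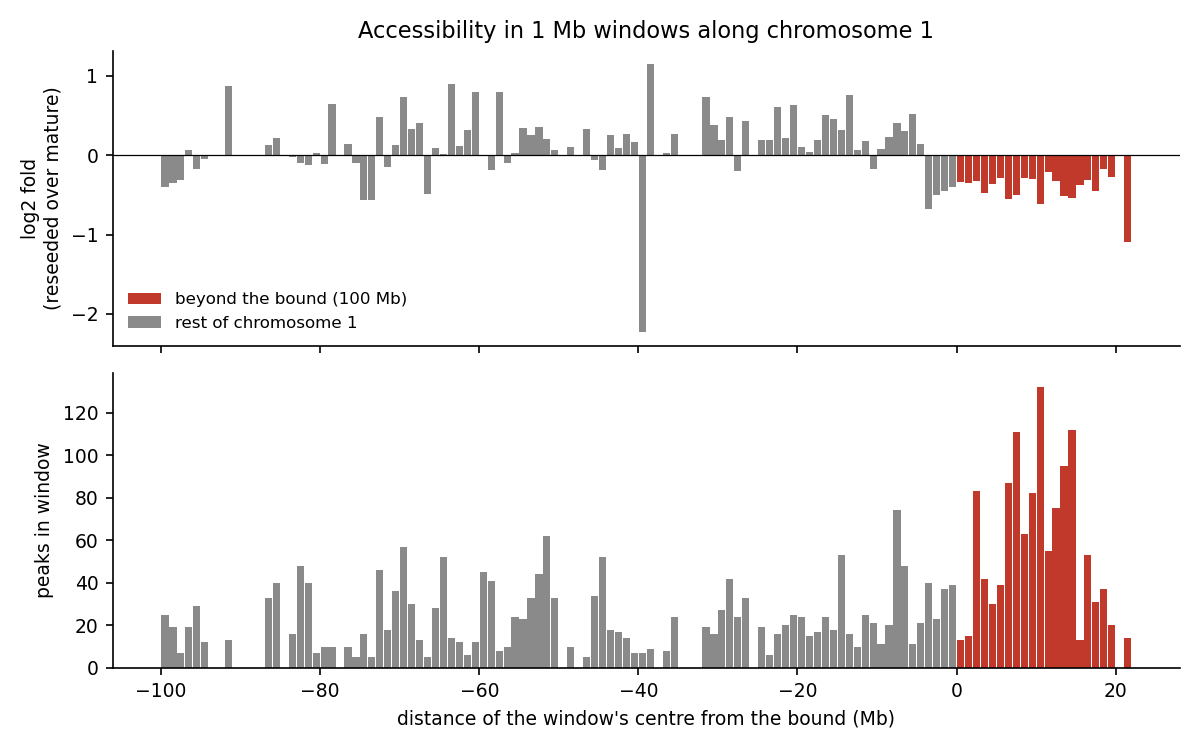
Log2 fold of reseeded over mature (upper panel) and number of peaks (lower panel) in the tested 1 Mb windows of chromosome 1, by distance from the 100 Mb bound. Under TMM scaling all 21 windows beyond the bound lie below 0, as do the 4 windows just before it, whereas 50 of the 85 windows before the bound were called higher.

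The shift did not begin at 100 Mb. Going along the chromosome, windows from 91000001 to 95000001 were called higher, with log2 folds of 0.14 to 0.52, and the 4 windows from 96000001 to 99000001 were called lower. The window from 95000001 had 359.8 and 353.8 CPM in reseeded libraries, against 331.5 and 314.6 CPM in mature libraries, a log2 fold of 0.14 (SE 0.029). The next, from 96000001, had 583.6 and 597.3 CPM in reseeded libraries, against 960.3 and 931.1 CPM in mature libraries, a log2 fold of -0.68 (SE 0.023). Under TMM scaling the change of sign thus fell between neighbouring windows. The folds of the windows before the bound under other scalings are not given here. Together with the windows beyond the bound, this gave 25 tested windows called lower in a row, from 96000001 to 122000000, with 1341 peaks. It was the longest such row among 346 in the genome under TMM scaling, counted over adjacent tested windows. By library size alone the longest was again there, with 22 windows up to 118000000. With loess offsets the row broke up: its longest piece, 8 windows from 113000001, came after a row of 9 on chromosome X. Under TMM scaling the next were 18 windows of chromosome 2 from 68000001 to 86000000 (median log2 fold -0.35), 17 of chromosome 18 from 37000001 to 56000000 (-0.32) and 13 of chromosome 20 from 37000001 to 51000000 (-0.35). The median of the row on chromosome 1 was -0.38.

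Of the 3 peaks nearest the bound on either side, 2 inside and all 3 outside had log2 folds below 0. The 3 peaks just inside, starting at 100064855, 100130639 and 100147489, had log2 folds of -0.19 (SE 0.19), 0.30 (SE 0.14) and -0.32 (SE 0.09). The 3 just outside, starting at 99853720, 99892750 and 99986433, had log2 folds of -0.43 (SE 0.07), -0.25 (SE 0.10) and -0.39 (SE 0.12). These values were not firm: with loess offsets the peak from 100064855 had -0.79 and that from 99853720 -0.06. Without mature library A the peaks from 99892750 and 99986433 had -0.05 and -0.03, and without mature library B the peak from 100130639 had 0.12.

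Window sums differed more in number of peaks than in fold. The first window, from 100000001, with 13 peaks, had 200.8 and 201.1 CPM in reseeded libraries, against 259.0 and 247.2 CPM in mature libraries, a log2 fold of -0.34 (SE 0.030). The other window with 13 peaks, from 115000001, had 271.7 and 269.6 CPM in reseeded libraries, against 365.7 and 335.4 CPM in mature libraries (-0.38, SE 0.037). Neither held a peak that was both called and changed by 2-fold or more, so their lower sums came without a called fold of that size. The window with the most peaks, 132, began at 110000001 and had 2188 and 2162 CPM in reseeded libraries, against 3330 and 3350 CPM in mature libraries, a log2 fold of -0.62 (SE 0.018). Of its peaks, 39 had losses of at least 2-fold and 12 had gains of that size. The window from 106000001, with 87 peaks, had 1893 and 1886 CPM in reseeded libraries, against 2789 and 2752 CPM in mature libraries (-0.55, SE 0.018). Under TMM scaling only the last window of the chromosome lay below these dense windows, but with loess offsets they had log2 folds of -0.15 and -0.14, above the -0.47 and -0.51 of the 2 windows with 13 peaks.

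Under TMM scaling the smallest differences lay at 118000001, 111000001 and 119000001, whereas with loess offsets these were -0.21, -0.03 and -0.38 and the smallest lay at 112000001 and 102000001. The window from 118000001 had 489.3 and 491.3 CPM in reseeded libraries, against 544.3 and 558.4 CPM in mature libraries, a log2 fold of -0.17 (SE 0.022). It mixed 9 gains of at least 2-fold with 10 losses of that size, and by library size alone its log2 fold was -0.05 and no longer called. The windows from 111000001 and 119000001 had log2 folds of -0.22 (SE 0.016) and -0.28 (SE 0.021). In 20 of the 21 windows the median peak was lower too, and in the window from 119000001 it was at 0.01. Across the 21 windows, log2 fold and number of peaks had a Pearson r of -0.13 and a Spearman rho of -0.26, and without the last window -0.59 and -0.43 over 20. With loess offsets the sign turned, to an r of 0.65 and a rho of 0.76 over 21, so how fold went with peak number depended on the scaling. The windows share their libraries, so these values describe the stretch only.

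**Figure D3:**
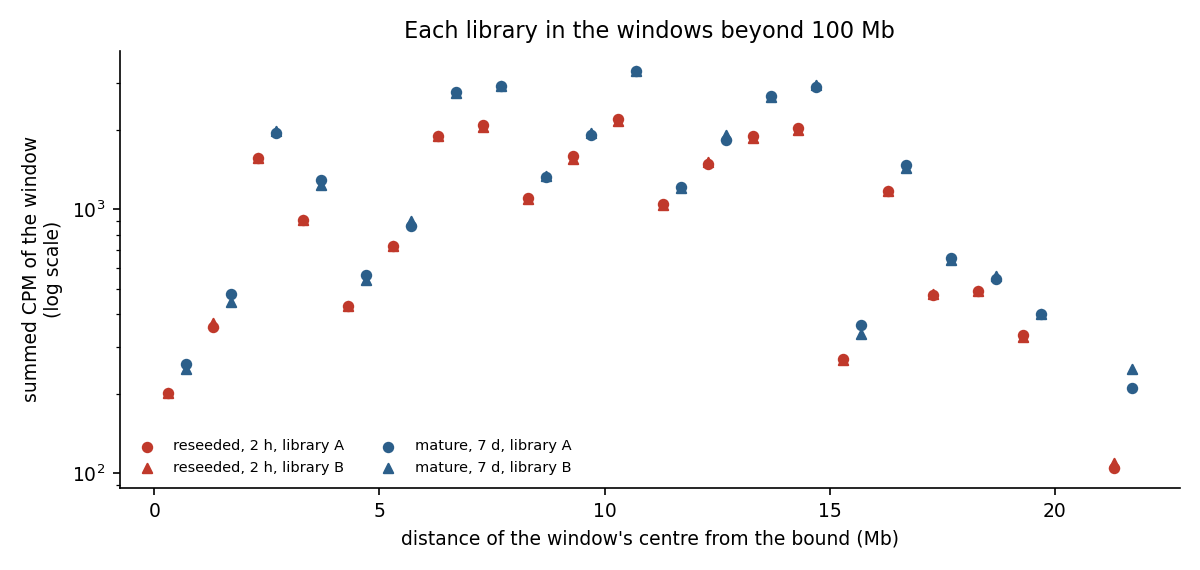
Summed CPM (vertical axis, log scale) of each library in the 21 tested windows beyond 100 Mb, by distance from the bound (horizontal axis, Mb). In every window both reseeded libraries lie below both mature libraries, though the share of the genome's windows with groups apart in this way was not counted. Libraries of a group nearly coincide except among the mature libraries of the last window.

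The end of the chromosome stood apart within the stretch, and the ends of other chromosomes were not compared. No peak lay in the 1.48 Mb after 119519574, and the last 16 peaks lay between 121004176 and 122229203. Summed, they had 118.0 and 121.1 CPM in reseeded libraries, against 229.5 and 261.3 CPM in mature libraries. Losses of at least 2-fold were found at 9 of the 16 and a gain of that size at 1, with a median log2 fold of -1.25. In the whole stretch 16.5% had such losses, and of all peaks 15.0%. The tested window from 121000001 (14 peaks) had 104.7 and 109.2 CPM in reseeded libraries, against 210.8 and 248.8 CPM in mature libraries, a log2 fold of -1.09 (SE 0.074). It was the lowest of the stretch and its only window at least 2-fold lower. The lowest window of the rest of chromosome 1 had a log2 fold of -2.23 and that of the genome -2.95. Without mature library A the log2 fold of the window from 121000001 was -1.21 and without mature library B -0.97.

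Sparse and dense neighbourhoods alike were lower beyond 100 Mb. The peaks of the whole series were divided into 5 classes of about equal size by the number of others within 500 kb. In the sparsest class (up to 24 others), the 55 peaks beyond 100 Mb had a median log2 fold of -0.37, against 0.36 for the 11900 peaks elsewhere. Of these, 3.64% were at least 2-fold higher beyond 100 Mb, against 35.8% elsewhere, and 18.2% were at least 2-fold lower, against 12.3% elsewhere. In the middle classes, going from sparse to dense, the medians were -0.29, -0.35 and -0.41 beyond 100 Mb, against 0.26, 0.12 and -0.12 elsewhere. In the densest class (over 74 others), which held 56.7% of the stretch, they were -0.47 beyond 100 Mb and -0.35 elsewhere. There the shares lay nearer each other: 9.81% were at least 2-fold higher beyond 100 Mb, against 13.8% elsewhere. Those at least 2-fold lower were 18.6% beyond 100 Mb, against 19.7% elsewhere. Elsewhere the median thus moved down with density across the classes, and beyond 100 Mb it stayed within -0.47 to -0.29. Classes by mean CPM gave -0.49 beyond 100 Mb and -0.32 elsewhere for the strongest peaks (over 23.7 CPM). For the weakest (up to 7.59 CPM, 142 peaks of the stretch) they gave 0.43 beyond 100 Mb and 1.10 elsewhere. Under TMM scaling this class was thus higher on balance in both. The classes between, going from weak to strong, had medians of -0.52, -0.37 and -0.35 beyond 100 Mb, against 0.09, -0.07 and -0.16 elsewhere. With loess offsets the weakest had medians of -0.54 beyond 100 Mb and 0.05 elsewhere, and the strongest -0.24 beyond 100 Mb and -0.10 elsewhere. Under loess offsets the sparsest class had medians of -0.36 beyond 100 Mb and 0.06 elsewhere, and the densest -0.40 beyond 100 Mb and -0.34 elsewhere. No test was made of these differences.

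**Figure D4:**
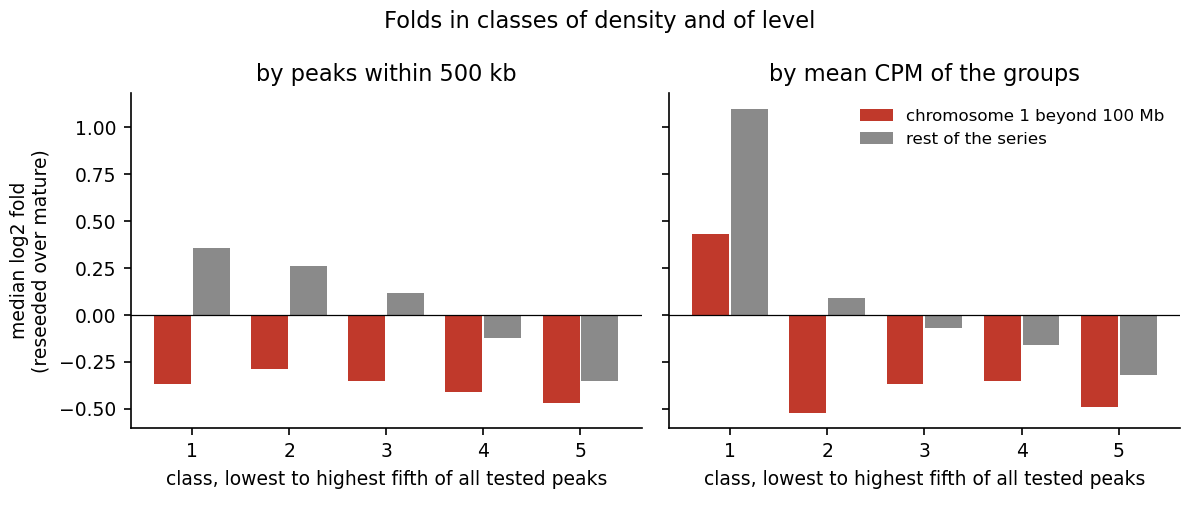
Median log2 fold of reseeded over mature (vertical axis) in 5 classes of all tested peaks, by number of other peaks within 500 kb (left) and by mean CPM of both groups (right), for chromosome 1 beyond 100 Mb and for the rest of the series. By density, bars beyond 100 Mb lie between -0.47 and -0.29 in every class, while those elsewhere go from 0.36 to -0.35.

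The strongest peaks of the stretch kept most of their accessibility. The peak from 112107672 to 112108172 had 115 and 119 CPM in reseeded libraries, against 160 and 164 CPM in mature libraries, a log2 fold of -0.47 (SE 0.06). That from 106894809 to 106895309 had 101 and 107 CPM in reseeded libraries, against 154 and 155 CPM in mature libraries (-0.57, SE 0.06). The other 3 of the top 5 began at 103070654, 110540963 and 106859874, with log2 folds of -0.47, -0.50 and -0.57. Groups did not overlap at any of the 5, but with loess offsets 4 turned to log2 folds of 0.15, 0.01, 0.10 and 0.04 and the last was -0.06, so their direction depended on the scaling.

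The deepest losses formed a single compact cluster. Of the 8 lowest folds, 7 lay on chromosome 1 from 110084747 to 110089178, neighbours within an unbroken run of 9 lower peaks over 5.86 kb from 110083323. The peak from 110088678 had 6 and 9 counts in reseeded libraries, against 130 and 121 counts in mature libraries, which is 0.35 and 0.369 CPM against 15.1 and 19.6 CPM. Its log2 fold was -5.53 (SE 0.30, adjusted p under edgeR's test at most 1.15e-17, as for all 8). The peak from 110086584 had 0.817 and 0.697 CPM in reseeded libraries, against 35.8 and 31.9 CPM in mature libraries (-5.50, SE 0.17). The remaining 5 had log2 folds of -5.38 to -4.92. At the peak from 110084747, with 13 and 7 counts in reseeded libraries, accessibility was 62.6-fold lower without reseeded library A and 24.3-fold lower without reseeded library B.

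All 7 had at most 1.34 CPM in each reseeded library and at least 15.1 CPM in each mature library. The first 2 peaks of the run were still accessible after reseeding: that from 110083323 had 10.4 and 8.2 CPM in reseeded libraries, against 23.4 and 20.2 CPM in mature libraries (-1.27, SE 0.13). That from 110083865 had 12.0 and 10.6 CPM in reseeded libraries, against 22.0 and 24.5 CPM in mature libraries (-1.04, SE 0.12). Within 50 kb of the run lay 31 other peaks with a median log2 fold of -0.57, of which 7 had losses and 0 gains of at least 2-fold. Such losses made up 16.5% of the whole stretch and 15.0% of all peaks, and such gains 11.3% and 26.9%. The counts near the run were not tested. Without the run, the 123 other peaks of the 110 Mb window had a log2 ratio of summed CPM of -0.45, against -0.55 with it on the same scale.

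The remaining lost clusters were smaller. The eighth lowest fold, -3.67 (SE 0.19), lay from 114685645 to 114686145, with 1.69 and 1.97 CPM in reseeded libraries, against 19.9 and 28.7 CPM in mature libraries. It belonged to a run of 5 lower peaks from 114683306 to 114688000, whose sums were 12.02 and 13.45 CPM in reseeded libraries, against 88.5 and 103.0 CPM in mature libraries. Runs of 4 lower peaks lay from 107676170 to 107684368 (median log2 fold -1.45) and from 114019710 to 114030128 (-1.79). No run of 4 or more neighbouring peaks within 10 kb of each other was at least 2-fold higher. Runs of either direction elsewhere in the genome were not counted.

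Gains did not form long runs. Of the 136 peaks at least 2-fold higher, some were neighbours: 27 pairs of adjacent peaks were both at least 2-fold higher. Gains of that size were rarer in the stretch (11.3%) than among all peaks (26.9%). Pairs and runs of gains elsewhere were not counted, so their scarcity is not shown to be particular to the stretch. The highest fold was at the peak from 107237488 to 107237988, with 23.2 and 24.2 CPM in reseeded libraries, against 1.04 and 2.92 CPM in mature libraries, a log2 fold of 3.69 (SE 0.20). It rested on 9 and 18 mature counts, and accessibility was 8.13-fold higher without mature library A and 22.4-fold higher without mature library B. The peak from 116952757 to 116953257 had 31.7 and 36.7 CPM in reseeded libraries, against 2.67 and 4.21 CPM in mature libraries (3.38, SE 0.16). The peak from 119519074 to 119519574 had 34.2 and 35.9 CPM in reseeded libraries, against 3.25 and 4.21 CPM in mature libraries (3.26, SE 0.14). It was the last peak before the empty 1.48 Mb and had no other within 50 kb. The other 5 of the top 8 began at 112953747, 111592049, 105314237, 107019774 and 106378287, with log2 folds of 2.71 to 2.44. Mature library B was above mature library A at all 8. Within 50 kb of the 8 gained peaks lay 48 others in all, of which 6 (12.5%) had gains and 4 losses of at least 2-fold. In the whole stretch 11.3% had such gains and 16.5% such losses, so the share of gains was close and that of losses was lower.

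**Figure D5:**
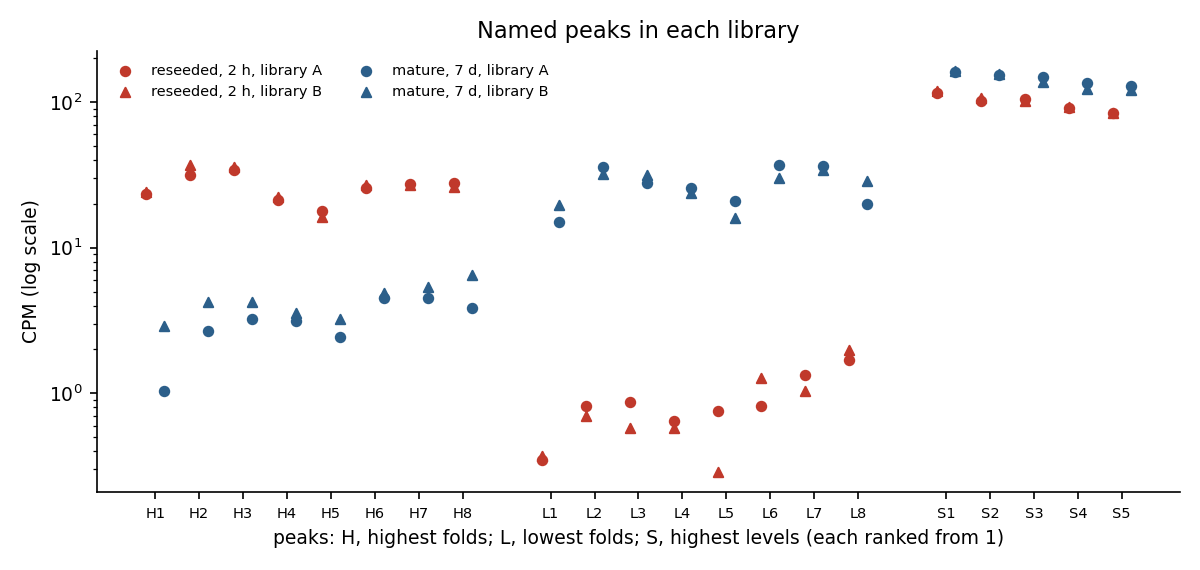
CPM (vertical axis, log scale) in each library of the 8 peaks with the highest folds (H), the 8 with the lowest folds (L) and the 5 with the highest levels (S) beyond 100 Mb. H and L were picked from peaks whose groups did not overlap, and the groups do not overlap at the 5 S peaks either. The share of all peaks with groups apart in this way was not counted. The lowest-fold peaks sit between 0.287 and 1.97 CPM in reseeded libraries, and the highest-level peaks differ least.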

How the data were processed

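ATAC-seq was done on 4 libraries, 2 per group. The authors deposited raw counts, not normalized, for 59081 peaks of 501 bp. Per the submitters' processing notes, Bowtie2, MACS2 and the CanFam3.1 build were used; versions, duplicate handling, the Tn5 offset and the rule for listing peaks, not given in the sources used here, can change counts and the share of weak peaks. Chromosomes were read from sequence accessions and positions count from 1.

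In R 4.3.3, edgeR 4.0.16 was fitted to all peaks, and apart from that to counts summed in 1 Mb windows of at least 5 peaks, with filterByExpr and TMM factors for each fit and no block. P-values were adjusted by Benjamini-Hochberg over all peaks or all windows. SE came from the fold and its F statistic. Fits were tested on simulated data with known folds. Tables were made with pandas 2.3.3, numpy 2.4.6 and scipy 1.17.1, figures with matplotlib 3.10.9. Ratios between libraries used CPM plus 0.5. Named peaks were the 8 highest and 8 lowest folds, taken from called peaks whose mean count reached 50 and whose groups did not overlap, the 5 highest mean CPM, and 3 peaks each side of the bound. Named windows were the 3 highest and lowest folds, those with most and fewest peaks, and the first and last; the window from 96000001 and its neighbours were added after their values were seen. Members, classes and comparisons were chosen with earlier results of these data known. Alternatives were DESeq2 1.42.0 size factors and Wald test, library size alone, loess offsets (limma 3.58.1), other filters, bounds and windows, a replicate block and each library left out.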

Additional observations from a re-analysis of the deposited data

How the results depend on the processing

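Counts of called peaks and of 2-fold changes beyond 100 Mb stayed within 1.5 times under every alternative run. The median log2 fold was -0.37 by library size alone and -0.37 under loess offsets, where the median of all peaks was -0.12, and -0.44 to -0.40 with a library left out; the cause was not tested. Windows of 500 kb gave 38 lower calls of 39 and windows of 2 Mb gave 11 of 11, as more or fewer were tested. With the bound moved down or up by 5 Mb, the difference in share of chromosome 1 counts was -9.6 or -7.5 points, as more or fewer peaks were included. Under loess offsets, peaks from 112107672, 106894809, 103070654 and 110540963 reversed to 0.15, 0.01, 0.10 and 0.04, and windows from 102000001 and 109000001 to 0.01 and 0.03. The other scalings of window rows, of fold against peak number and of level classes were chosen after seeing the data. With the replicate block, 995 peaks beyond 100 Mb and 21 windows were called; across peaks, the difference of libraries A and B in reseeded cells had a correlation of 0.0314 with that in mature cells, so the letters did not show pairing, and no named call was lost. With a library left out, the lone library of its group was assumed to vary as the other pair does. Mature depth limits small folds and the lowest mature values; the 7 deepest losses rest on 6 to 31 counts per reseeded library.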

Other observations

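Neighbouring peaks beyond 100 Mb differed alike where they adjoined. Across 198 pairs of adjacent peaks up to 1 kb apart, the correlation of log2 folds was 0.70; 29 pairs were both at least 2-fold lower, 3 both at least 2-fold higher and 1 opposite. Without the run of 9 lost peaks near 110 Mb, chosen after its values were seen, it was 0.48 over 190 pairs. Across 548 pairs from 1 to 10 kb apart it was 0.08, with 20 pairs both lower, 9 both higher and 21 opposite, and across 457 pairs over 10 kb apart it was 0.08, with 15, 15 and 20. All pairs share the same 4 libraries, and the closest may be parts of a single accessible site. Pairs elsewhere in the genome were not examined, so the likeness of adjoining peaks is not shown to be particular to the stretch.

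Counts beyond 100 Mb were slightly less concentrated after reseeding. The strongest 120 peaks of each library beyond 100 Mb held 28.1% and 28.2% of the counts of the stretch in reseeded libraries A and B, against 30.7% and 29.7% in mature libraries A and B. The 120 were picked anew in each library, and the mature libraries had fewer counts. The part of depth in this difference was not tested. Such shares were not taken outside the stretch, so the difference is not shown to be particular to it.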
